A study of Mus musculus with 3 samples.

Results

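The Gimap genes (GTPases of immunity-associated proteins) form a family of guanine nucleotide-binding proteins found together on mouse chromosome 6. They were taken from the deposited expression table by their symbols, Gimap1 and Gimap3 to Gimap9, and all 8 were listed among 16129 genes. The cells were type 2 innate lymphoid cells (ILC2s), innate lymphocytes that make type 2 cytokines, isolated by cell sorting from lungs of mice of genotype wild type, treated in vivo with IL-33, an alarmin that activates them. The data are 3 libraries of 1 group (replicates 1, 2 and 3), with 19948056, 19883728 and 19976129 estimated reads. The labels do not tie the libraries to mice, so SDs here measure the spread between these samples, which may be technical. The p-values concern these same samples only. No untreated library was analysed here, so the values describe the family within IL-33-exposed ILC2s and give no effect of IL-33.

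GIMAP proteins bind and hydrolyse GTP through a domain related to that of septins, and most of them sit on intracellular membranes. They are known from T and B lymphocytes, where loss of single members shortens cell survival, and some are also found in endothelial cells. The domain begins with the P-loop, a glycine-rich turn that holds the phosphates of the nucleotide.

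The P-loop codons are shown because a stretch coding for this turn was found in every member. In the GENCODE M21 transcripts of the build GRCm38, the codons of the P-loop pattern (glycine, any 4 residues, glycine, lysine, then serine or threonine) were found once in 7 members and at 3 places in Gimap8. Capitals mark the 24 bases of the pattern, and 15 coding bases on each side are in lower case.
Gimap1: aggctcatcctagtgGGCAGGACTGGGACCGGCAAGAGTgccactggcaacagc
Gimap3: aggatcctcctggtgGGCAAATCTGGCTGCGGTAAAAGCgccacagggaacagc
Gimap4: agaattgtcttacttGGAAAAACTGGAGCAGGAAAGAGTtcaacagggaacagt
Gimap5: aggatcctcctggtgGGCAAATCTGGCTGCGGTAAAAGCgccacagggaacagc
Gimap6: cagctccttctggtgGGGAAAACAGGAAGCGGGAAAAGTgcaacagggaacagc
Gimap7: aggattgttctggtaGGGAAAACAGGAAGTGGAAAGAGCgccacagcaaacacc
Gimap8, first copy: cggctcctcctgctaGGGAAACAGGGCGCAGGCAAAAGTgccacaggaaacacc
Gimap8, second copy: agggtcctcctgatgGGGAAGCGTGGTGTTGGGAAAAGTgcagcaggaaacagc
Gimap8, last copy: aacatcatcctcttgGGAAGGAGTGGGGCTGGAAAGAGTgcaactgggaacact
Gimap9: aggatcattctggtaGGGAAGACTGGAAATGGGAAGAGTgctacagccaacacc

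Of the 24 bases, 11 were identical in all 10 copies, and pairs of copies shared between 12 and 24 bases. The pattern itself fixes the leading bases of its glycine and lysine codons, so part of this identity was set by the search. The pair with 24 identical bases was Gimap3 and Gimap5. Each copy lay within a single exon. The Gimap3 stretch is at chr6:48765872-48765925 on the minus strand in exon 5 of 5, and that of Gimap5 at chr6:48752579-48752632 on the plus strand in exon 3 of 3.

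Along the whole coding sequence, Gimap3 and Gimap5 stood apart from the other pairs. They were identical at 809 of 895 aligned bases (90.4%), whereas the 28 pairs of members had a median of 61.7% and a lowest value of 56.1%, for Gimap1 and Gimap9. Their longest identical coding run was 140 bases, and this was the only pair of the 28 with a run of 50 bases or more. The run is shown because a read that falls wholly inside it cannot be assigned to either gene by its sequence. It lies at chr6:48765681-48765820 (minus strand) in Gimap3 and at chr6:48752684-48752823 (plus strand) in Gimap5, in both within 1 exon, and capitals mark that every base is shared.
Gimap3 and Gimap5: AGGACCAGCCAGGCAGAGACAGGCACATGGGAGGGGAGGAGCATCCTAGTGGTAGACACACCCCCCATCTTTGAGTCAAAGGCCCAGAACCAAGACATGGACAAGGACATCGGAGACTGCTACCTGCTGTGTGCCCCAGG

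**Figure D1:**
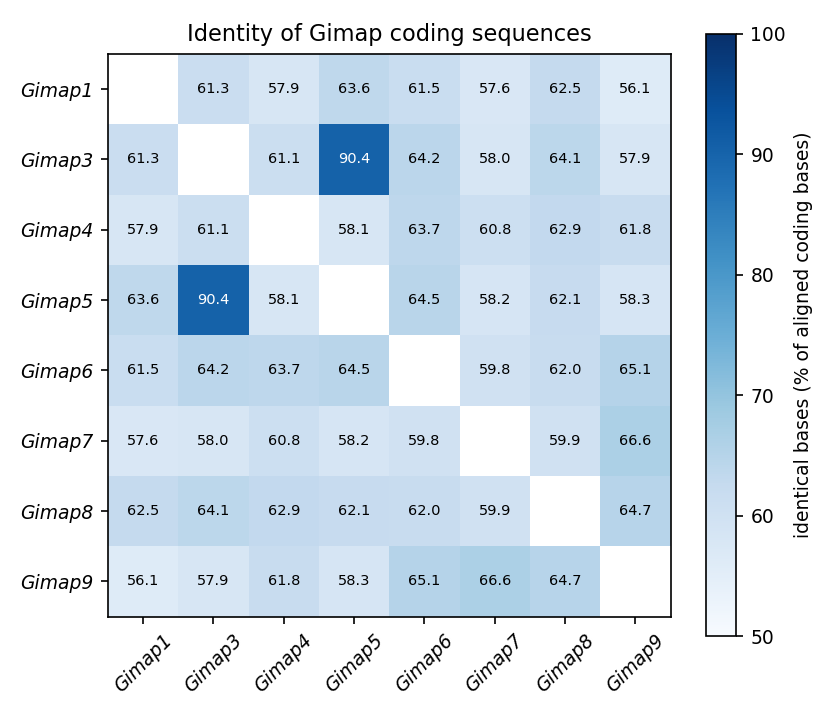
Percent of identical bases among the aligned coding bases for each pair of Gimap genes, in 1 GENCODE M21 transcript per gene, with darker blue for higher identity. Gimap3 and Gimap5 share 90.4%, and every other pair lies between 56.1% and 66.6%.

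All 8 Gimap genes were transcribed in these cells, each at 1 TPM or more in all 3 libraries, the level used here for detection. TPM divides reads by transcript length and scales them to the same total in every library, so levels can be compared between genes. Of all listed genes, 67.3% were detected by the same rule. A mean of at least 100 TPM was reached by 4 members (Gimap1, Gimap6, Gimap3 and Gimap8), against 10.3% of all listed genes, and a mean of at least 10 TPM by all 8, against 51.2%. The median of the 8 was 81.9 TPM beside 11.2 TPM for all listed genes and 28.2 TPM for detected genes. On the log2(TPM + 1) scale these medians were 6.28, 3.61 and 4.87.

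**Figure D2:**
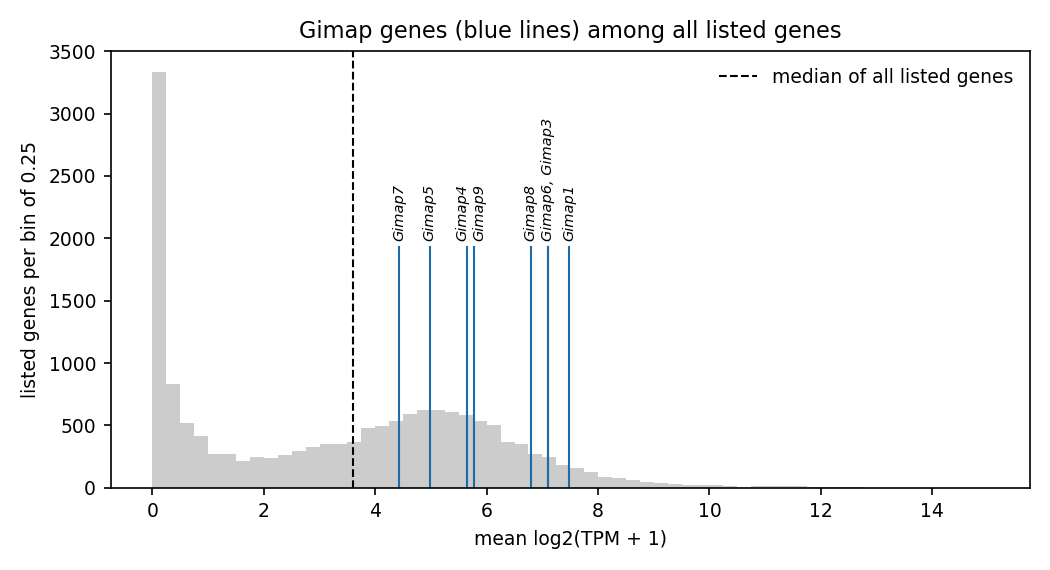
Histogram of the mean log2(TPM + 1) over 3 libraries for all 16129 listed genes in bins of 0.25, with the 8 Gimap genes as blue lines and the median of all listed genes (3.61) as a dashed line. All 8 lines lie to the right of the dashed line, and those of Gimap6 and Gimap3 coincide.

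The membrane-anchored Gimap1, which mature T and B cells need in order to persist, was the highest. It stood at 181, 169 and 182 TPM in replicates 1, 2 and 3, a mean of 177 ± 7.05 (SD, n = 3), and ranked 832 of 16129. The libraries lay close together, with replicate 2 the lowest. Gimap1 made up 24.9% ± 0.918 of the summed Gimap TPM.

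Gimap6, a cytosolic member that binds the ATG8 protein GABARAPL2 and is linked to autophagy, stood at 144, 133 and 131 TPM (135.6 ± 6.90). Gimap3, which is a pseudogene in humans, stood at 138, 131 and 138 TPM (135.6 ± 4.25). These 2 genes could not be ranked, since their libraries overlapped and Gimap6 was the higher in 2 of 3. Gimap8, the long member with the 3 P-loop copies, stood at 112, 111 and 107 TPM (109.9 ± 2.87), below every library of the 3 genes above it.

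The other 4 members were lower and did not overlap with the first 4. Gimap9 stood at 57.1, 54.1 and 50.3 TPM (53.8 ± 3.40). Gimap4, a cytosolic member that speeds the death of T cells, stood at 51.3, 50.2 and 46.6 TPM (49.4 ± 2.44). Gimap9 exceeded Gimap4 within each library, but the ranges of the 2 genes overlapped.

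Gimap5, a protein of lysosomal membranes whose loss causes lymphopenia in rats and mice, stood at 33.8, 30.3 and 27.7 TPM (30.6 ± 3.02). Gimap7, whose human relative activates GTP hydrolysis by forming dimers, was the lowest at 18.9, 21.7 and 21.0 TPM (20.5 ± 1.47). Gimap7 still lay above 59.8% of listed genes and Gimap5 above 68.1%. The highest member, Gimap1, was 8.65 times the level of Gimap7.

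**Figure D3:**
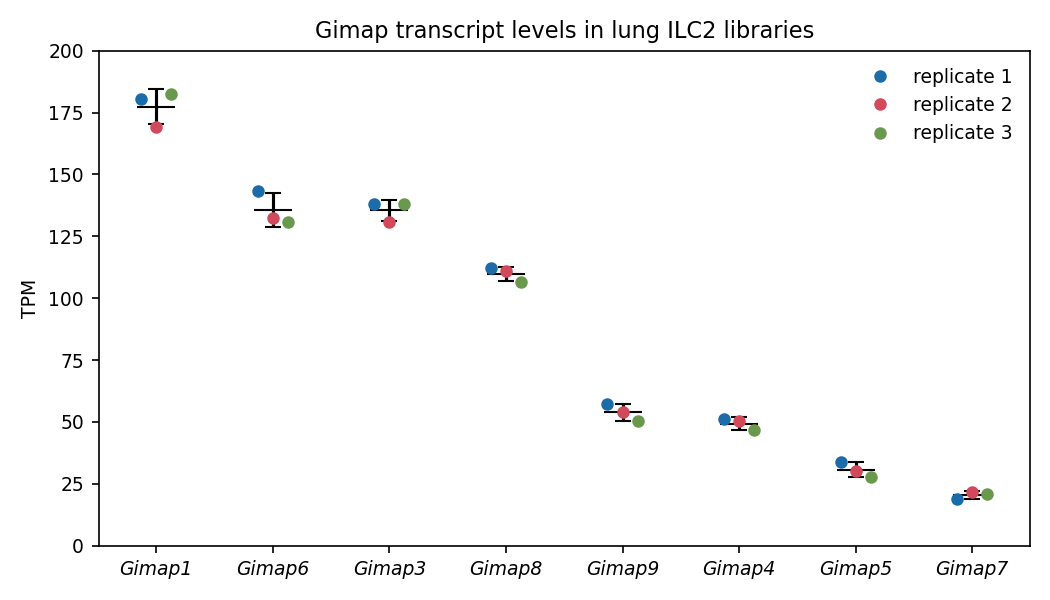
TPM of each Gimap gene in replicates 1 to 3 (points), with the mean (long bar) and SD (capped bar) over 3 libraries, in order of the mean. Gimap1, Gimap6, Gimap3 and Gimap8 lie between 107 and 182 TPM in every library, and the other 4 between 18.9 and 57.1 TPM.

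Differences within libraries were taken for the 7 pairs that neighbour each other in this order. The order was made from the same libraries, so the first gene of each pair had the higher mean TPM by construction. The differences, overlaps and p-values below describe the steps and are no independent evidence of the order. For 5 pairs the libraries of the 2 genes did not overlap. On the log2(TPM + 1) scale Gimap1 exceeded Gimap6 by 0.39 ± 0.080 (SD over 3 libraries), and Gimap3 exceeded Gimap8 by 0.30 ± 0.067. The widest step was from Gimap8 to Gimap9, at 1.02 ± 0.055, a ratio of mean TPM of 2.04. Gimap4 exceeded Gimap5 by 0.68 ± 0.076, and Gimap5 exceeded Gimap7 by 0.55 ± 0.22. Gimap9 exceeded Gimap4 by 0.12 ± 0.026 in 3 of 3 libraries, while Gimap6 and Gimap3 differed by 0.00 ± 0.068. The two-sided exact permutation test, by flipping signs, has 0.25 as its smallest p with 3 libraries. It gave 0.25 for 6 pairs (0.29 after Benjamini-Hochberg adjustment over the 7) and 1 for Gimap6 and Gimap3, so none passed a threshold of 0.05.

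The closest relatives by sequence lay far apart in level. Gimap3 was 4.43 times as high as Gimap5 in mean TPM, and Gimap5 minus Gimap3 was -2.002, -2.071 and -2.274 on the log2(TPM + 1) scale in replicates 1 to 3 (mean -2.12 ± 0.14). The direction was the same in 3 of 3 libraries, with p = 0.25 in the exact sign-flip permutation test, the smallest it can give. Of the 50-base words of the GENCODE transcripts, 190 are common to both genes, inside and outside the shared run, which is 7.52% of those of Gimap3 and 4.53% of those of Gimap5. How reads from these stretches were divided was not tested. RefSeq also lists Gimap5 among the older names of Gimap3, so a symbol alone can mislead. The rows taken here by symbol carry the Entrez IDs 83408 (Gimap3) and 317757 (Gimap5).

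Together the 8 genes took 735, 700.0 and 703 TPM in replicates 1, 2 and 3, which is 0.0713% ± 0.0019 of all TPM. The first 4 genes supplied 78.3% ± 0.842 of this sum. By reads the makeup was different: Gimap8, with an effective length of 3597 to 3599 bases, held 28.4% of the Gimap reads but 15.4% of the Gimap TPM, and Gimap1, with 1456 bases, held 18.6% of the reads and 24.9% of the TPM. The lowest member, Gimap7, rested on 222, 252 and 243 reads, whose exact 95% Poisson intervals were 194 to 253, 222 to 285 and 213 to 276. These intervals cover counting error only, and for Gimap7 they all overlapped.

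The genes span 123.7 kb at chr6:48647186-48770851 (RefSeq, GRCm38.p6), and no other listed gene lies between them. From left to right they are Gimap8 (48647186 to 48660875), Gimap9 (48676121 to 48679116), Gimap4 (48684578 to 48692062), Gimap6 (48701583 to 48708244), Gimap7 (48718621 to 48724636), Gimap1 (48739047 to 48743795), Gimap5 (48746197 to 48754200) and Gimap3 (48764464 to 48770851). Gimap6 and Gimap3 are on the minus strand and the other 6 on the plus strand. The level did not follow the position: Gimap1 lies between the 2 lowest members, Gimap7 and Gimap5, and only 2401 bases separate it from Gimap5. The gap between Gimap7 and Gimap1 is 14410 bases.

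On the left, the nearest listed genes were low. Zfp775, which encodes a zinc finger protein and ends 25.6 kb before Gimap8, stood at 6.84 ± 0.767 TPM, Repin1 at 6.60 ± 1.04 and Gm5111 at 0.153 ± 0.179. On the right, 63.0 kb beyond Gimap3, Tmem176b and Tmem176a stood at 134 ± 5.47 and 88.6 ± 3.77 TPM, within the range of the Gimap genes. They encode paired membrane proteins. The next gene, Gm7932, was at 0.167 ± 0.136 TPM.

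**Figure D4:**
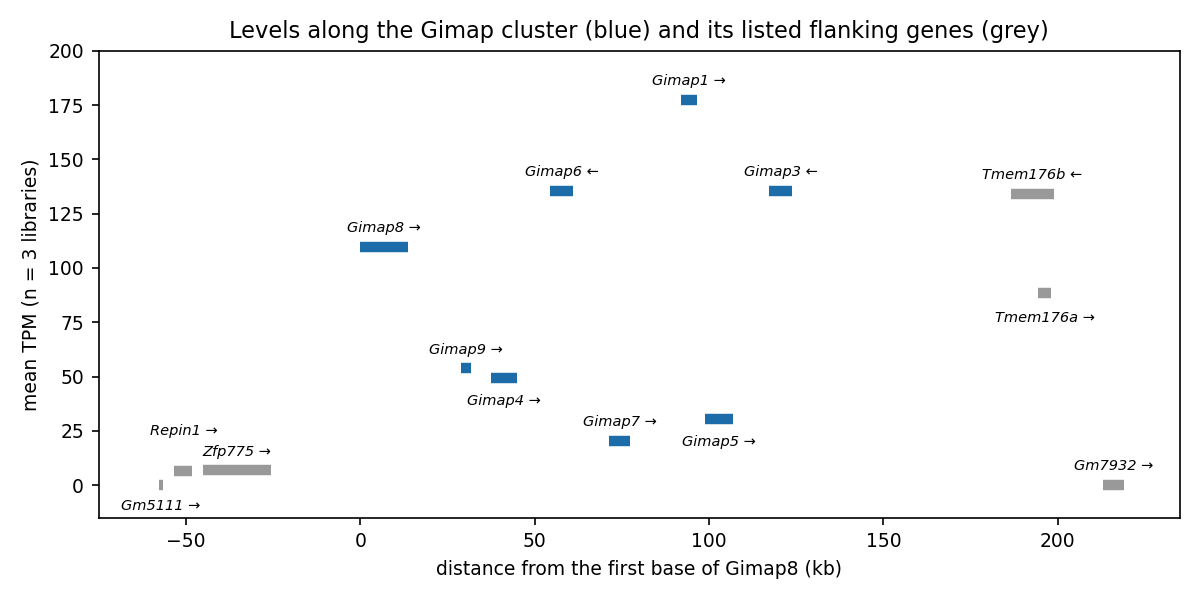
Mean TPM over 3 libraries against the distance from the first base of Gimap8 in kb, with each gene drawn as a bar over its span, Gimap genes in blue, flanking listed genes in grey and arrows for the strand. Gimap1 at 177 TPM lies between Gimap7 at 20.5 and Gimap5 at 30.6, and the the listed genes to the left of Gimap8 are at 6.84 TPM or less.

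Annotated overlaps limit some of these values. In GENCODE M21, the antisense gene Gimap1os overlaps Gimap1 over 2391 bases, and the read-through gene Gm28053 overlaps Gimap7, Gimap1 and Gimap5 on their own strand. Neither was analysed here, and the strand setting of the counting is not stated in the labels or the table. Of the 50-base words of Gimap1 transcripts, retained introns included, 35.5% also occur on either strand in another gene, 1011 of 3116 of them in Gimap1os. For Gimap4, Gimap8 and Gimap9 none of their 50-base words occurred in another gene. Gimap6 and Gimap7 had 0.170% and 1.39%.

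Promoter windows, from 250 bases before to 50 bases after a start site (RefSeq, GRCm38.p6), were compared across the cluster. They were searched on both strands for letters typical of factors active in lymphocytes and for the TATA box. The 8 genes have 9 windows, since Gimap8 has 2. AGGAAG, a form of the ETS core, was in 7 of the 9 and in 7 of the 8 genes, and Gimap6 lacked these exact letters. They were in 35.4% of 32851 windows of all genes and 34.0% of the 16147 windows of listed genes. TGTGGT, a form of the RUNX core, was in 3 of the 9 (Gimap4, Gimap7 and Gimap1), beside 16.8% of all windows and 13.5% of those of listed genes. TTCNNNGAA, a STAT form, was in 4, beside 8.30% and 6.99%. TATAAA was in 1, beside 13.6% and 8.47%. AGATAA, a form bound by GATA factors, was in 0, beside 11.2% and 7.48%. Only these exact letters were searched for each factor, so other spellings of its sites were not counted. None of these letters was tested against the levels, and a match is not evidence of binding. The windows of the highest and lowest members are shown, on the plus strand at chr6:48738797-48739096 for Gimap1 and at chr6:48718371-48718670 for Gimap7, with matches to the ETS and RUNX letters on either strand in capitals.
Gimap1: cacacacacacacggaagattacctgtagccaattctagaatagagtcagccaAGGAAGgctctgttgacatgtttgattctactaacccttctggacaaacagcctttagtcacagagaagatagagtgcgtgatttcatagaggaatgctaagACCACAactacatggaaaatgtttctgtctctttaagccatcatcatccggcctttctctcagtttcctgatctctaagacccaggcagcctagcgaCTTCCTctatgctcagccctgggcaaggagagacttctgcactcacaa
Gimap7: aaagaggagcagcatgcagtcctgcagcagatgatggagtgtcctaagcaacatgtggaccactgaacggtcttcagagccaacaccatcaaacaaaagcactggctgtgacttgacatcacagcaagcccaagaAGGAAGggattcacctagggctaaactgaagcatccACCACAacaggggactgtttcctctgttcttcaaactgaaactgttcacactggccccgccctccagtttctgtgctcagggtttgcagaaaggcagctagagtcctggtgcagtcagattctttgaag

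Both windows hold the ETS and the RUNX letters. The genes were chosen as the highest and lowest members, and a link of the letters to level was not tested. Gimap1 has 2 matches to the ETS letters and 1 to the RUNX letters, and Gimap7 has 1 of each.

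Fixed lists of survival genes and of ATG8 genes hold some known partners of GIMAP proteins, such as Bcl2 and Gabarapl2. All 8 survival genes were detected. For this and the lists below, the share to set beside the count is 67.3%, that of all listed genes. Bax, a pore-forming death protein, and Mcl1, a survival protein, were highest at 176 ± 1.08 and 172 ± 4.68 TPM, followed by Bcl2 (67.2 ± 2.41), which binds GIMAP family members in T cells, and the death protein gene Bak1 (66.2 ± 1.71). All 5 genes of the ATG8 family, the conjugated proteins of autophagosomes, were detected. Gabarapl2, the partner of Gimap6, stood at 321 ± 18.8 TPM, beside Gabarap at 351 ± 9.30, Map1lc3b at 185 ± 6.27 and Gabarapl1 at 38.0 ± 1.86.

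The other immune GTPases, the interferon-induced IRG and GBP families that act on pathogen vacuoles, were all detected where listed (15 of 17, without Mx1 and Mx2). Their median of 36.2 TPM was below the 81.9 TPM of the Gimap genes, and none reached a mean of 100 TPM. Igtp (88.4 ± 5.58), Ifi47 (86.9 ± 0.848), Gbp6 (73.9 ± 3.06) and Tgtp2 (67.5 ± 0.375) led. Members of these families have near-identical copies, so their single values are uncertain.

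Genes of resting and recirculating lymphocytes, among which Gimap genes are known to be high, were mixed. Of 13 genes 11 were detected, with Btg1 (an antiproliferative gene, 737 ± 12.2 TPM), Slfn2 (259 ± 16.7), Txnip (201 ± 4.71) and Tcf7 (67.0 ± 1.15) highest. Bach2, a transcriptional repressor, was below 1 TPM in all libraries (0.760 ± 0.104). Among reference genes Hprt stood at 182 ± 9.11 TPM, beside Gimap1, and Sdha and Ywhaz were higher at 241 ± 1.03 and 710.1 ± 5.52. The 3 genes nearest to Gimap1 in log2(TPM + 1) over the 3 libraries were Glmp (largest difference 0.030), St13 (0.036) and Paics (0.037).

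The labelled cell type was checked against its markers. All 11 ILC2 markers were detected, each with a mean above 100 TPM, including Gata3 at 256 ± 4.999 and Il1rl1 at 1064 ± 33.2. Of 8 T cell markers 3 were detected, and their summed 422 to 434 TPM was nearly all Cd3g (416 ± 8.15), while Cd4, Cd5, Cd6 and Cd8b1 were below 1 TPM in all libraries. Of 5 B cell markers 1 was detected (Cd79b, 21.9 ± 1.82), with Ms4a1 and Pax5 below 1 TPM, and of 5 NK and ILC1 markers 1 (Tbx21, 3.46 ± 0.420). Of 7 endothelial markers 2 were detected, Pecam1 (79.8 ± 2.76), which leukocytes also carry, and Egfl7 (2.10 ± 0.464), while Cdh5, Cldn5, Esam and Kdr were below 1 TPM. Macrophage markers (5 of 6 listed detected) summed to 382, 374 and 523 TPM in replicates 1 to 3, of which Chil3 alone took 338, 327 and 461. Lyz2 came next at 33.1, 37.4 and 46.75 TPM. C1qa and C1qb stood at 3.99 ± 0.715 and 5.83 ± 1.21, and Adgre1 was below 1 TPM. The macrophage sum was highest in replicate 3. The Gimap sum was highest in replicate 1 and Gimap1 in replicate 3, and neither was tested against the macrophage sum. Epithelial markers had 3 of 4 detected with summed values of 47.0 to 51.5 TPM, and platelet markers 0 of 3. The part of other cells in the Gimap levels was not tested, and in pooled cells a smaller number of cells with a transcript and less of it per cell cannot be told apart.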

How the data were processed

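RNA sequencing libraries of sorted lung ILC2s were described from 1 deposited table. Bowtie2, RSEM 1.3.1 and the build GRCm38.p6 come from the submitters' processing notes, with no order. For the annotation and the strand setting, nothing is stated. Per the file headers, the authors deposited TPM, FPKM and read counts, and the last are not all whole, as estimated (expected) counts are. The deposited normalised read counts, a depth-scaled signal, equalled the expected count rounded up times 1 factor per library and were not used further. Pairs of libraries differed by more than counting noise (chi-square per degree of freedom 2.48 to 3.47, genes with at least 20 reads), so none looked like a library deposited a second time. This does not show that they are biological replicates.

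Levels are means and SDs of TPM. Differences are on the log2(TPM + 1) scale, where the pseudocount shrinks those of low genes. Of the gene IDs, 16081 of 16129 matched RefSeq. Reads were not mapped again. Coding sequences came from the GENCODE M21 protein-coding transcript with the longest coding sequence, aligned globally with Biopython 1.88. Functions were tested on simulated data. Members, lists and tests were chosen with earlier results of these data known. Named were all members, up to 4 highest detected genes per list, up to 4 genes below 1 TPM in alphabetical order, 3 listed genes on each side of the cluster and the 3 genes nearest in level to Gimap1. Gata3 was named outside this rule, to check the label, after its value was seen. A few genes covered by it are left unreported. Alternatives were FPKM, CPM from counts, a pseudocount of 0.1, detection at 0.5 and 5 TPM, TPM without ribosomal protein genes, and leaving out each library.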

Additional observations from a re-analysis of the deposited data

How the results depend on the processing

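All 8 genes were also detected at 5 TPM in all libraries, while the looser rules could not lose a gene. The mean over the 8 genes (89.1 TPM) ranged from 87.7 to 89.9 without 1 library. That mean was 42.7 in FPKM, 83.3 in CPM and 113.6 TPM without 86 ribosomal protein genes, as each unit's denominator sets. The Gimap share of 0.0713% became 0.0666% of reads and 0.0909% of TPM without ribosomal protein genes, and ranged from 0.0702% to 0.0719% without 1 library. The Gimap1 share of the Gimap sum was 18.6% by reads and 24.4% to 25.2% without 1 library. CPM, which does not correct for length, placed Gimap8 first (189 CPM), before Gimap3 (136), Gimap1 (124) and Gimap6 (102). It turned the order of Gimap3 and Gimap8 (-0.47 on the log2 scale) and of Gimap9 and Gimap4 (-0.26), gave -0.42 for Gimap6 minus Gimap3, and left 4 of the 5 non-overlapping steps in their direction. Gimap6 minus Gimap3 ranged from -0.028 to 0.037 without 1 library, turning its sign without replicate 3. The number of non-overlapping steps was 5 to 6 without 1 library. Gimap5 minus Gimap3 stayed between -2.26 and -2.04 under all 6 alternatives. The Gimap median exceeded that of all listed genes by 2.68 on the log2 scale, by 1.41 against detected genes, 2.77 with a pseudocount of 0.1, 2.58 in FPKM and 2.64 to 2.72 without 1 library. No paired analysis was possible because the study has 1 group and so no groups to pair. The exact sign-flip test of differences within libraries cannot pass 0.05 with 3 libraries.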

Other observations

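Gimap5 had the highest coefficient of variation over the 3 libraries among the 8 members, 9.88%, and was singled out after this was seen. Leaving out libraries for this measure was likewise chosen after seeing the data. The value and the rank depended on single libraries: it was 6.38% without replicate 1 and 13.9% without replicate 2, and without replicate 3 Gimap7 (9.86%) exceeded Gimap5 (7.52%). The Gimap5 reads numbered 617, 547 and 498 in replicates 1, 2 and 3, and the exact 95% Poisson intervals of replicates 1 (569 to 668) and 3 (455 to 544), which cover counting error only, did not overlap. This was not particular to Gimap5. The intervals of replicates 1 and 3 also did not overlap for Gimap6 (2073 to 2256 and 1854 to 2027) and Gimap8 (3766 to 4011 and 3525 to 3762). For the remaining members they overlapped.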
